A study of Mus musculus with 12 samples.

Results

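The Mirc11 cluster of the mouse, on chromosome 8, holds the microRNA genes Mir23a, Mir27a and Mir24-2 within 404 bp (chr8:84208518-84208921, GRCm38, plus strand). The genes described here are 10 rows of the expression table that lie at or near this cluster, namely Mir27a itself, the transcript models Gm37352 and Gm26532, and the protein-coding genes Zswim4, Trmt1, Cc2d1a, Podnl1, Dcaf15, Il27ra and Adgre5. They are 10 of 50674 genes in the table, were chosen by symbol with earlier genotype differences of these data known, and 9 of them passed the filter on low counts. Because the choice is taken to have used the comparison of Mirc11-/- with wild-type cells, genotype differences are described below without a test. The responses to stimulation within each genotype are tested. Whether earlier results on stimulation also guided the choice is not recorded, so these tests are not shown to be independent of it. The difference between the genotypes' responses is built from the same genotype differences, so its test draws on values known at the choice.

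RNA was sequenced from splenic natural killer (NK) cells of C57BL/6 mice expanded with IL-2. The groups were Mirc11-/- cells given 6 h of stimulation of NKG2D, an activating receptor, unstimulated Mirc11-/- cells, wild-type cells stimulated in the same way, and unstimulated wild-type cells, with 3 libraries each that the design calls biological replicates. All groups shared the IL-2 expansion. How the Mirc11 allele was made, whether it was deleted in all tissues and the age of the mice are not given in the sources used here. The labels do not tie the replicates to animals, so p-values measure the spread between these libraries. Counts per library averaged 17.3 ± 0.955 and 16.9 ± 1.70 megacounts (units of 1000000 counts) in stimulated and unstimulated Mirc11-/- cells, against 21.0 ± 1.08 and 22.6 ± 3.32 megacounts in stimulated and unstimulated wild-type cells (SD, n = 3 each). Summed over 10 NK genes, levels were 3490 to 5630 and 10600 to 11500 counts per 1000000 counts of scaled depth (CPM) in stimulated and unstimulated Mirc11-/- cells, against 6550 to 7830 and 9600 to 11700 CPM in stimulated and unstimulated wild-type cells. The highest summed level of another cell type's markers was that of T cells, at 312 to 452 CPM over all libraries. Fewer cells of a type and less RNA per cell cannot be told apart in such bulk samples. Levels below are such CPM, scaled between libraries with edgeR's TMM factors.

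MicroRNAs are cut from hairpins in a longer primary transcript, and the mature strand guides Argonaute proteins to messenger RNAs that pair with its seed, bases 2 to 8. Deleting a cluster therefore removes mature microRNAs that act on transcripts anywhere in the genome, and it can also alter DNA near neighbouring transcripts. How far the altered DNA reaches in this allele is not given in the sources used here. Mature microRNAs carry no poly(A) tail, so libraries of polyadenylated RNA do not measure them.

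The hairpins of the cluster are shown because they make up the cluster that the mutant is named for, with both mature arms in capitals (RefSeq, GRCm38.p6, chromosome 8, plus strand).
Mir23a hairpin: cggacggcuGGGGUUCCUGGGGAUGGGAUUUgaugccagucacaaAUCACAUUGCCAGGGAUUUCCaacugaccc
Mir27a hairpin: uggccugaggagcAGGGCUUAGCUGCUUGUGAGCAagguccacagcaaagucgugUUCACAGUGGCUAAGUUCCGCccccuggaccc
Mir24-2 hairpin: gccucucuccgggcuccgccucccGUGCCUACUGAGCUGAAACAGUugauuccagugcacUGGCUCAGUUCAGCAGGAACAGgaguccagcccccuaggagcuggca

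The mature strands of the cluster's 3' arms are set beside miR-27b-3p of the related cluster on chromosome 13 (Mir23b, Mir27b and Mir24-1) to show the seeds, which are in capitals. miR-23b-3p is named only.
mmu-miR-23a-3p: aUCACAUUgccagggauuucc
mmu-miR-27a-3p: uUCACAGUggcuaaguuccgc
mmu-miR-27b-3p: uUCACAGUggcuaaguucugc
mmu-miR-24-3p: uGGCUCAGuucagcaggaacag
The seeds of miR-27a-3p and miR-27b-3p were identical, and miR-24-3p was listed with 1 and the same sequence for Mir24-2 and Mir24-1.

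The described genes occupy both sides of the cluster (GENCODE vM21). On the side of lower coordinates, the end nearest to the cluster lay 5.469 kb away for Gm37352, 60.582 kb for Cc2d1a, 75.991 kb for Podnl1, 103.75 kb for Dcaf15, 165.929 kb for Il27ra and 467.192 kb for Adgre5. On the side of higher coordinates, Gm26532 began inside the last bases of the Mir24-2 hairpin, Zswim4 ended 1.757 kb away and Trmt1 began 477.386 kb away. Zswim4, Cc2d1a, Dcaf15, Il27ra and Adgre5 are on the minus strand, opposite to the cluster, and Gm37352, Gm26532, Podnl1 and Trmt1 are on the plus strand with it. The first 60 bases of Gm26532 (chr8:84208920-84208979, plus strand, GENCODE vM21 transcript) show how close it lies to the deleted hairpins, with the 2 bases it shares with the Mir24-2 hairpin in capitals.
Gm26532 first bases: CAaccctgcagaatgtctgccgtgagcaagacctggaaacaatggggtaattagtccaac

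Counts of Mir27a (ENSMUSG00000065444, chr8:84208672-84208758) were set beside the genotype labels, since its hairpin lies in the deleted cluster. Mir27a is part of the choice, so this is not an independent check of the labels. It had 0 counts in each of the 6 Mirc11-/- libraries, against 1, 0 and 4 counts in the stimulated wild-type libraries and 2, 3 and 3 counts in the unstimulated ones. Summed over each genotype this is 0 counts in 102 megacounts of Mirc11-/- cells against 13 counts in 131 megacounts of wild-type cells, or 0.0995 CPM in wild-type cells. The wild-type level was 3.4-fold above a floor of 3 counts over the 6 Mirc11-/- libraries (0.0293 CPM). The floor covers counting error in the Mirc11-/- libraries only. Counting error of the 13 wild-type counts is left out, so 3.4-fold is not a lower limit. At this depth 1 stimulated wild-type library also had no count, so a single library could not show the genotype. A single count of Mir24-2 fell in replicate 3 of the stimulated wild-type cells, and Mir23a and the 3 microRNA genes of the chromosome 13 cluster had 0 counts in all 12 libraries. The host gene of that cluster, 2010111I01Rik, averaged 11.4 ± 2.31 and 18.8 ± 1.57 CPM in stimulated and unstimulated Mirc11-/- cells, against 10.3 ± 1.86 and 19.9 ± 1.82 CPM in stimulated and unstimulated wild-type cells (SD, n = 3 each). Its level therefore overlapped between the genotypes in each treatment.

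The transcript models on the 2 sides of the cluster differed between the genotypes in opposite directions. Gm37352 (ENSMUSG00000103593, chr8:84200869-84203049) is an unspliced model of 2181 bp that awaits experimental support in the annotation and has no named function. It had 67.4, 68.7 and 53 CPM in stimulated and 54.6, 43.6 and 45.3 CPM in unstimulated Mirc11-/- cells, against 15.3, 18.6 and 22.7 CPM in stimulated and 17.1, 18 and 16.2 CPM in unstimulated wild-type cells. Every Mirc11-/- library was above every wild-type library. The differences, Mirc11-/- minus wild-type, were 1.74 log2 ± 0.142 in stimulated and 1.49 log2 ± 0.142 in unstimulated cells (SE of the fit), or 3.35-fold and 2.80-fold. No other annotated gene overlaps this model, and 0% of its 31-base words were found in other genes' transcripts.

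Gm26532 (ENSMUSG00000097296, chr8:84208920-84209609), a long noncoding RNA model of 690 bp, was low in Mirc11-/- cells. It had 1.45, 1.34 and 0.842 CPM in stimulated and 0.883, 1.26 and 0.82 CPM in unstimulated Mirc11-/- cells, against 3.45, 3.52 and 4.06 CPM in stimulated and 3.41, 3.9 and 2.57 CPM in unstimulated wild-type cells. The libraries of the 2 genotypes did not overlap, and counts were still present in every Mirc11-/- library (14 to 25 counts). The differences were -1.60 log2 ± 0.258 in stimulated and -1.73 log2 ± 0.266 in unstimulated cells. Averaged over both treatments, Gm37352 was 3.06-fold higher and Gm26532 3.17-fold lower in Mirc11-/- cells.

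Zswim4 (ENSMUSG00000035671, chr8:84210678-84237055), which encodes a protein with a SWIM-type zinc finger, is the nearest protein-coding gene and points towards the cluster. It had 33.2, 28.1 and 30.7 CPM in stimulated and 20.8, 19.6 and 19.6 CPM in unstimulated Mirc11-/- cells, against 41, 46.6 and 47.4 CPM in stimulated and 30.6, 30.9 and 28.4 CPM in unstimulated wild-type cells. Within each treatment the Mirc11-/- libraries were all lower, whereas stimulated Mirc11-/- and unstimulated wild-type libraries overlapped. The differences were -0.55 log2 ± 0.0869 in stimulated and -0.58 log2 ± 0.0888 in unstimulated cells, a level about 1.48-fold lower on average.

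Trmt1 (ENSMUSG00000001909, chr8:84686307-84699808), a tRNA guanine methyltransferase, was the other protein-coding gene of the set at a lower level. It had 30.4, 34.8 and 34.5 CPM in stimulated and 42.9, 39.2 and 42.5 CPM in unstimulated Mirc11-/- cells, against 52.6, 59 and 55.9 CPM in stimulated and 59.6, 63.7 and 56.9 CPM in unstimulated wild-type cells. All 6 Mirc11-/- libraries were below all 6 wild-type libraries. The differences were -0.75 log2 ± 0.084 in stimulated and -0.53 log2 ± 0.0832 in unstimulated cells. Its span overlaps that of Nacc1 on the other strand by 1556 bp but shares 0 exonic bases with it, and Nacc1 differed between genotypes by 0.01 log2 ± 0.0821 in stimulated and 0.05 log2 ± 0.0817 in unstimulated cells.

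**Figure D1:**
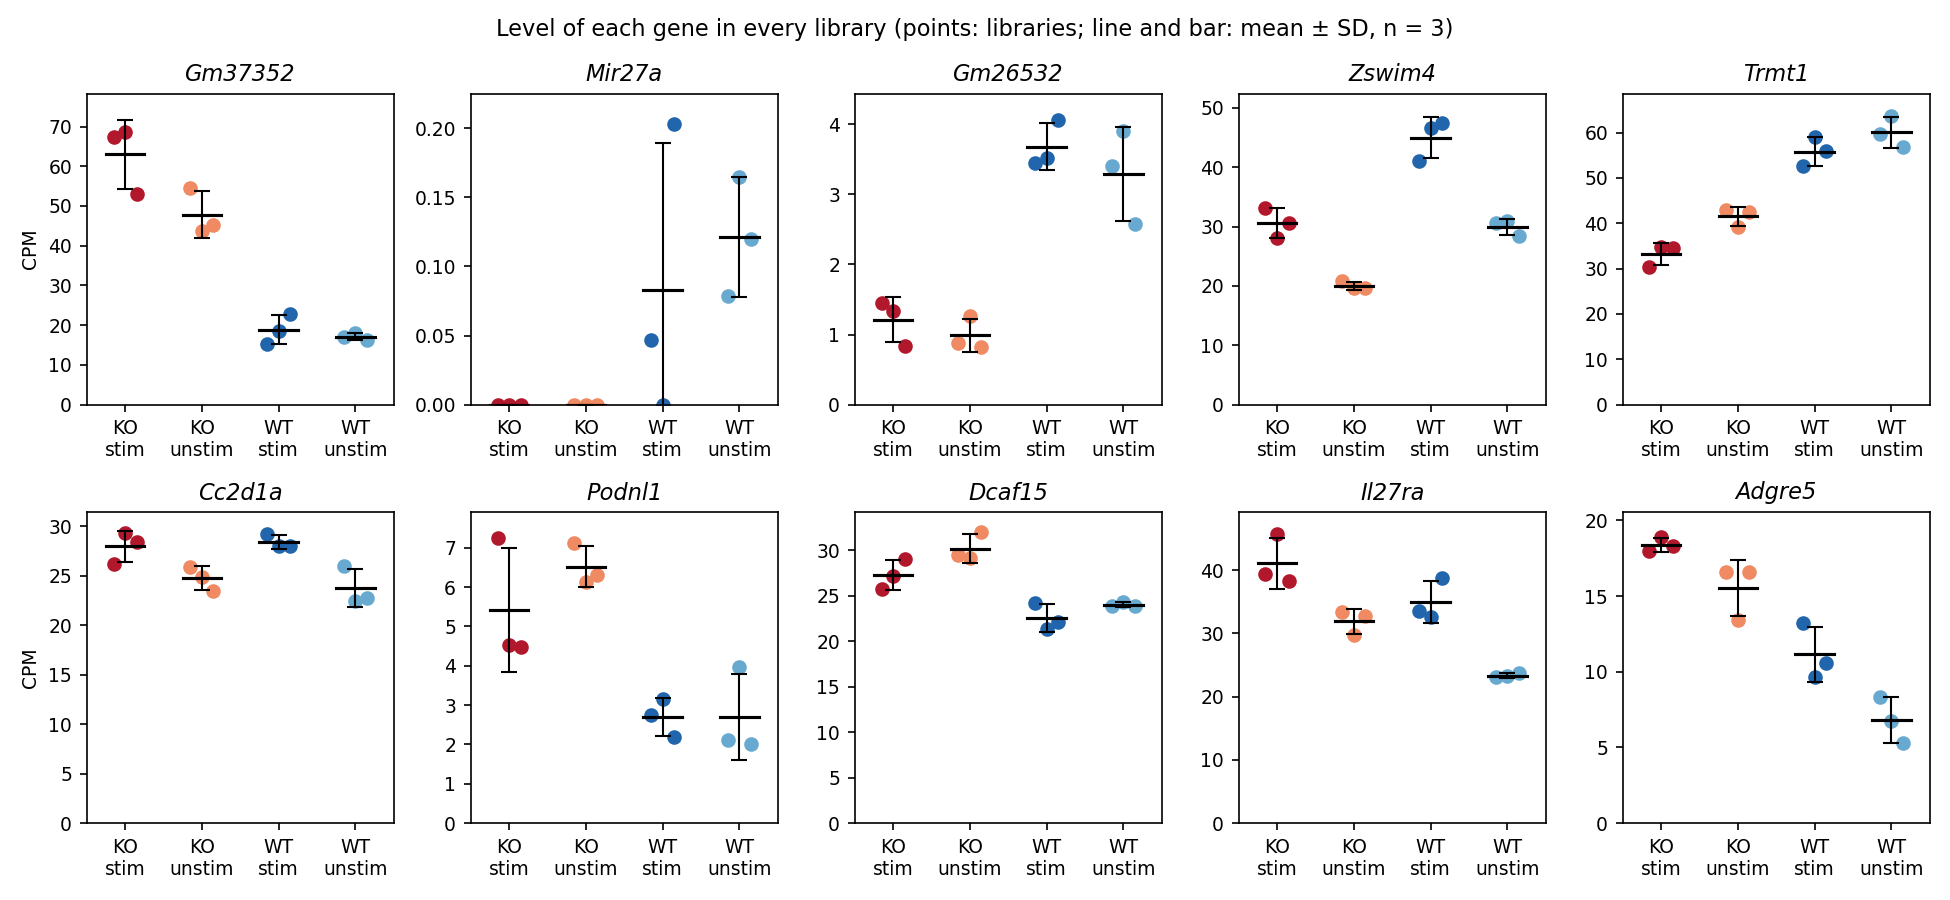
Level of each of the 10 genes in CPM (linear axis from 0) in stimulated and unstimulated Mirc11-/- (KO) and wild-type (WT) NK cells. Points are libraries, lines and bars the mean ± SD of 3 libraries; Gm37352, Podnl1, Dcaf15 and Adgre5 lie higher in all 6 KO libraries, Gm26532 and Trmt1 lower in all 6, and Cc2d1a overlaps.

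Among the described protein-coding genes, those with higher levels in Mirc11-/- cells lay on the side of Gm37352. These genes were chosen with their genotype differences known, and genes outside the choice did not all follow such a division. Over both treatments, Adgrl1 on the side of Gm37352 was lower (-0.68 log2 ± 0.126). On the other side Cacna1a was higher (1.67 log2 ± 0.243) and Mri1 lower (-1.32 log2 ± 0.0909). Podnl1 (ENSMUSG00000012889, chr8:84125989-84132527), a small leucine-rich repeat protein of the podocan family, had 7.25, 4.54 and 4.49 CPM in stimulated and 7.12, 6.12 and 6.32 CPM in unstimulated Mirc11-/- cells, against 2.75, 3.16 and 2.18 CPM in stimulated and 2.12, 3.96 and 2 CPM in unstimulated wild-type cells. The genotypes did not overlap, although stimulated Mirc11-/- replicate 1 stood above replicates 2 and 3 of its group. Podnl1 differed by 1.01 log2 ± 0.269 in stimulated and 1.298 log2 ± 0.267 in unstimulated cells.

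Adgre5 (ENSMUSG00000002885, chr8:83723251-83741326) encodes CD97, an adhesion G-protein-coupled receptor of leukocytes that binds CD55. It had 18, 18.9 and 18.3 CPM in stimulated and 16.6, 13.4 and 16.6 CPM in unstimulated Mirc11-/- cells, against 13.2, 9.68 and 10.6 CPM in stimulated and 8.36, 6.76 and 5.29 CPM in unstimulated wild-type cells. All Mirc11-/- libraries were higher, by 0.72 log2 ± 0.158 in stimulated and 1.19 log2 ± 0.163 in unstimulated cells. The exons of Adgre5 share 895 bp, 23.8% of their length, with those of Ddx39 on the other strand, and 19.3% of its 31-base words were found in other genes' transcripts. No source used here gives the strand setting of the counting, so reads of the shared stretch cannot be told apart. Ddx39, an RNA helicase gene, averaged 86.0 ± 4.30 CPM in unstimulated Mirc11-/- and 83.5 ± 3.16 CPM in unstimulated wild-type cells (SD, n = 3 each), a difference of 0.04 log2 ± 0.0916. In stimulated cells Ddx39 was lower in Mirc11-/- cells, by -0.27 log2 ± 0.0928, where Adgre5 was higher.

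Il27ra (ENSMUSG00000005465, chr8:84030294-84042589), the ligand-specific chain of the interleukin-27 receptor, had 39.3, 45.7 and 38.2 CPM in stimulated and 33.3, 29.7 and 32.7 CPM in unstimulated Mirc11-/- cells, against 33.5, 32.6 and 38.8 CPM in stimulated and 23.1, 23.2 and 23.7 CPM in unstimulated wild-type cells. Unstimulated libraries separated by genotype (0.45 log2 ± 0.0941), and stimulated ones overlapped (0.23 log2 ± 0.0926).

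Dcaf15 (ENSMUSG00000037103, chr8:84097072-84104768), a substrate receptor of cullin-RING ubiquitin ligases, had 25.7, 27.1 and 29 CPM in stimulated and 29.4, 29.1 and 32 CPM in unstimulated Mirc11-/- cells, against 24.2, 21.3 and 22.1 CPM in stimulated and 23.8, 24.3 and 23.9 CPM in unstimulated wild-type cells. All Mirc11-/- libraries were higher, by 0.28 log2 ± 0.0838 in stimulated and 0.33 log2 ± 0.0832 in unstimulated cells. Cc2d1a (ENSMUSG00000036686, chr8:84132828-84147936), a C2-domain signalling scaffold and transcriptional repressor that lies between Podnl1 and the cluster, had 26.2, 29.3 and 28.4 CPM in stimulated and 25.9, 24.9 and 23.5 CPM in unstimulated Mirc11-/- cells, against 29.2, 28 and 28 CPM in stimulated and 26, 22.5 and 22.8 CPM in unstimulated wild-type cells. Its genotypes overlapped in both treatments, with differences of -0.02 log2 ± 0.0853 in stimulated and 0.06 log2 ± 0.0858 in unstimulated cells, and approximate 95% intervals of -0.19 to 0.14 and -0.11 to 0.23 log2.

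Counted together, 4 of the 9 tested genes were higher and 3 lower without overlap of libraries in stimulated cells, and 5 were higher and 3 lower in unstimulated cells. Over all 17457 tested genes, libraries did not overlap for 32.6% in stimulated cells (15.8% higher, 16.8% lower) and 17.8% in unstimulated cells (8.87% higher, 8.91% lower). Over both treatments at once, 6 against 6 libraries, 4 of the 9 were higher and 2 lower, and 1.76% of all tested genes were separate in this way (0.556% higher, 1.2% lower). These shares are background to a choice that used the same comparison. The edgeR fit called 9.02% of all genes between the genotypes in stimulated cells, 1.11% in unstimulated cells and 7.36% over both treatments. The median absolute difference over both treatments was 0.64 log2 for the 9 genes and 0.167 log2 for all tested genes.

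Per kilobase of annotated exon, the order of levels in unstimulated Mirc11-/- cells was led by Gm37352 with 21.9 ± 2.73 CPM per kb, followed by Dcaf15 with 12.7 ± 0.68 and Il27ra with 9.13 ± 0.556 CPM per kb (SD, n = 3). Cc2d1a with 6.68 ± 0.317 and Trmt1 with 6.58 ± 0.325 CPM per kb came next and did not differ beyond their spread. Zswim4 with 4.32 ± 0.152 and Adgre5 with 4.14 ± 0.486 CPM per kb were likewise within their spread of each other, and Podnl1 with 1.84 ± 0.149 and Gm26532 with 1.43 ± 0.346 CPM per kb were lowest. In unstimulated wild-type cells Dcaf15 with 10.1 ± 0.115 and Trmt1 with 9.53 ± 0.542 CPM per kb came first and Gm37352 stood at 7.84 ± 0.415 CPM per kb, while Gm26532 with 4.77 ± 0.979 CPM per kb exceeded Adgre5 with 1.81 ± 0.408 and Podnl1 with 0.759 ± 0.309 CPM per kb.

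The 3' untranslated regions of the 7 protein-coding genes were searched on the transcript strand for the 7 letters opposite each seed, AATGTGA for miR-23a-3p, ACTGTGA for miR-27a-3p and CTGAGCC for miR-24-3p. The longest annotated region of each gene was used, and a single match was found, so none overlaps another. Podnl1 alone of the 7 held a match, 1 to miR-24-3p that starts at base 24 of its region of 300 bp. Of the 1475 other genes whose regions were within 20% of that length, 6.24% held the same letters. The match is shown in capitals with 11 bases on either side.
Podnl1 site: ggcaaggagccCTGAGCCctggagggtgg
The longest region, of 1268 bp in Zswim4, held none of the 3 motifs, which occurred in 14.8% (miR-23a-3p), 17.5% (miR-27a-3p) and 19% (miR-24-3p) of 2836 regions of similar length. A match of letters is a description and not a measured site.

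All genes of the neighbourhood were then described by position, to show how the 9 compare with what lies around them. Within 500 kb of the cluster the table held 53 genes, of which 29 were tested, 9 of them already described and 20 others. Among the 20 others, the median absolute difference over both treatments was 0.224 log2, and 1 was higher and 2 lower in all 6 Mirc11-/- libraries. These 3 were Cacna1a, Mri1 and Adgrl1; Adgrl1 was named after its values were seen. Mri1, an enzyme of methionine salvage 41.0 kb beyond the cluster, had 9.22, 11.8 and 13.5 CPM in stimulated and 15.8, 15.8 and 12.6 CPM in unstimulated Mirc11-/- cells, against 31.6, 33.9 and 33.4 CPM in stimulated and 31.4, 34.7 and 30.8 CPM in unstimulated wild-type cells. Its differences, -1.52 log2 ± 0.13 in stimulated and -1.13 log2 ± 0.127 in unstimulated cells, were larger in size than those of Zswim4, which lies closer. Cacna1a, a voltage-gated calcium channel subunit 180 kb away, was low throughout, with 1.16, 0.699 and 1.12 CPM in stimulated and 1.49, 2.65 and 2.4 CPM in unstimulated Mirc11-/- cells, against 0.419, 0.51 and 0.61 CPM in stimulated and 0.314, 0.44 and 0.481 CPM in unstimulated wild-type cells. Adgrl1, an adhesion receptor of the latrophilin type, ranged from 6.09 to 8.28 CPM in Mirc11-/- and from 9.27 to 16.4 CPM in wild-type libraries.

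The other nearest tested protein-coding genes did not separate over both treatments. Before the cluster these were 4930432K21Rik, Rfx1, Gm10643, Palm3 and 2210011C24Rik, with differences over both treatments of 0.63 ± 0.239, -0.06 ± 0.0739, 0.23 ± 0.23, -0.37 ± 0.264 and -0.37 ± 0.331 log2. Beyond it, D8Ertd738e, Ccdc130 and Ier2 differed by -0.41 ± 0.0931, -0.13 ± 0.109 and 0.03 ± 0.103 log2. In each of these 8 the 6 Mirc11-/- libraries overlapped the 6 wild-type libraries. Zswim4 and Il27ra overlapped by this rule too. Within treatments, 4930432K21Rik, Gm10643 and Ier2 were higher without overlap in unstimulated Mirc11-/- cells (1.14 ± 0.34, 0.253 ± 0.33 and 0.305 ± 0.144 log2). D8Ertd738e, Ccdc130 and 2210011C24Rik were lower without overlap in stimulated ones (-0.6 ± 0.132, -0.22 ± 0.152 and -0.946 ± 0.376 log2). Over all tested genes, 8.87% were higher and 16.8% lower in these ways. Rfx1 and Palm3 overlapped in each treatment. Of the 20 other genes, 4 rose and 7 fell with stimulation in Mirc11-/- cells, and 3 rose and 5 fell in wild-type cells. Over all tested genes, 23.5% rose and 22.1% fell in Mirc11-/- cells, and 16.1% rose and 15.7% fell in wild-type cells.

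**Figure D2:**
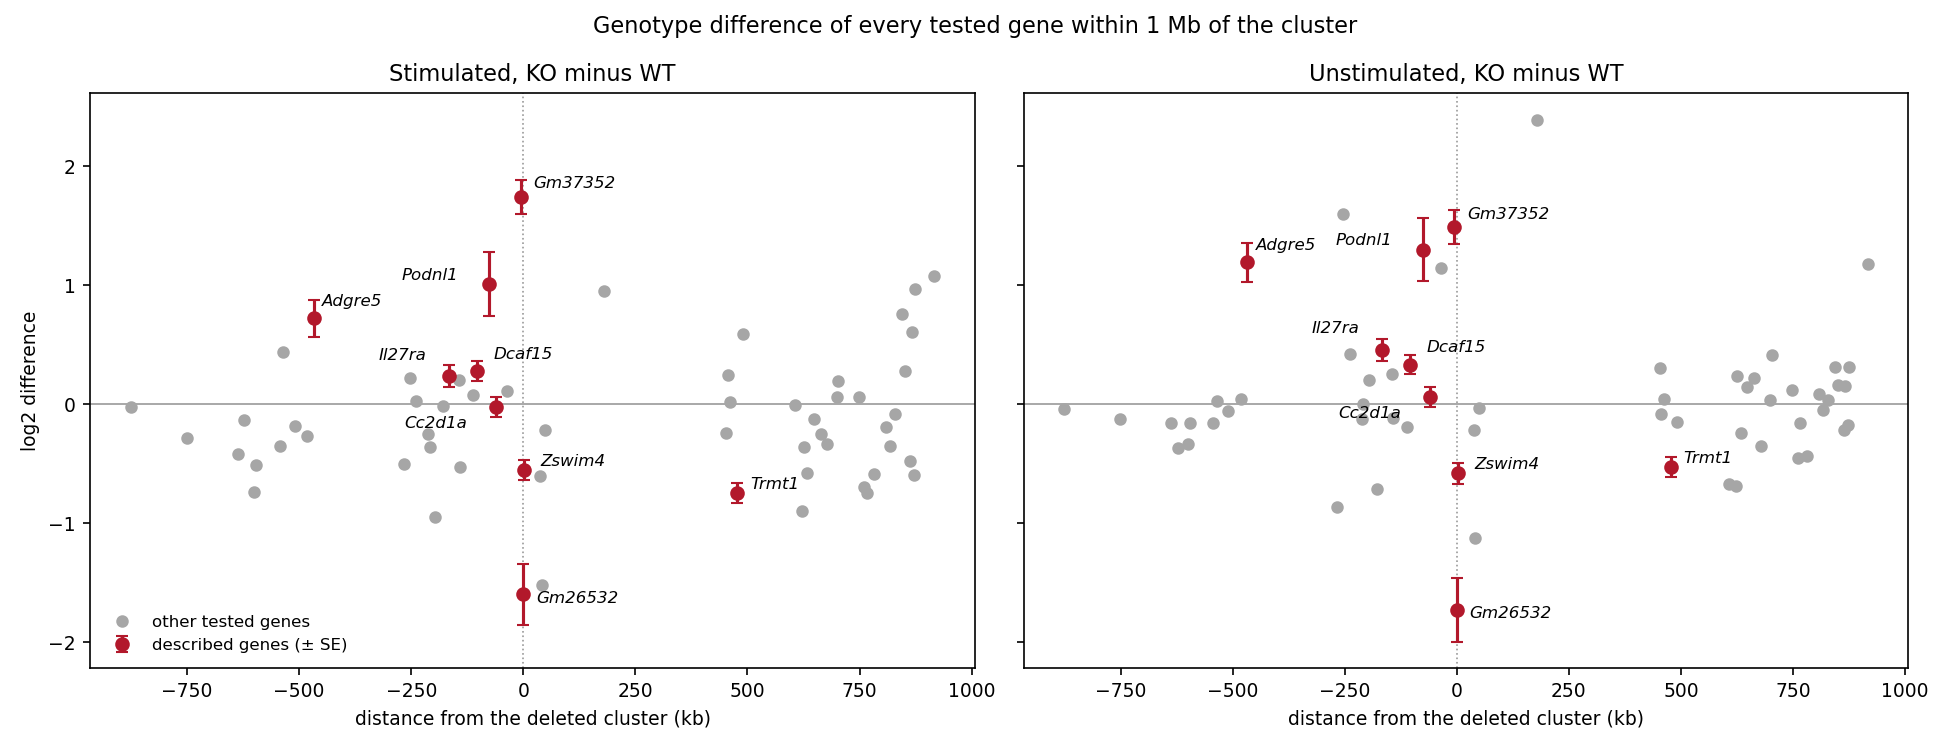
Log2 difference in level, Mirc11-/- (KO) minus wild-type (WT), against distance from the cluster in kb for every tested gene within 1 Mb, in stimulated (left) and unstimulated (right) cells. Red points with SE bars are the 9 described genes and grey points all others; Gm37352 (1.74 and 1.49) and Gm26532 (-1.60 and -1.73) stand on either side of 0 next to the cluster.

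The share of genes with separate genotypes was then taken by distance. All 6 Mirc11-/- libraries lay to 1 side of all 6 wild-type libraries for 4 of 9 tested genes under 0.1 Mb from the cluster, for 5 of 20 between 0.1 and 0.5 Mb, and for 5 of 32 (15.6%) between 0.5 and 1 Mb, a range that holds none of the described genes. The share was 3.92% of 51 genes between 1 and 5 Mb, 1.89% of 53 between 5 and 10 Mb, and 3.03% of the 791 genes beyond 10 Mb on chromosome 8. It was 4.29% for chromosome 8 as a whole and 1.76% for all tested genes. The first range holds 9 genes, 5 of them chosen for this description, and the second 4 such genes, so those shares are partly set by the choice. The 5 separate genes between 0.5 and 1 Mb, named after their values were seen, were Tecr, Gadd45gip1 and Prdx2, with lower levels (-0.54 ± 0.0889, -0.79 ± 0.106 and -0.57 ± 0.124 log2), and Man2b1 and Gm42031, with higher levels (0.64 ± 0.0513 and 1.12 ± 0.47 log2). Man2b1, a lysosomal mannosidase, ranged from 103 to 186 CPM in Mirc11-/- and from 81.4 to 95.7 CPM in wild-type libraries.

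**Figure D3:**
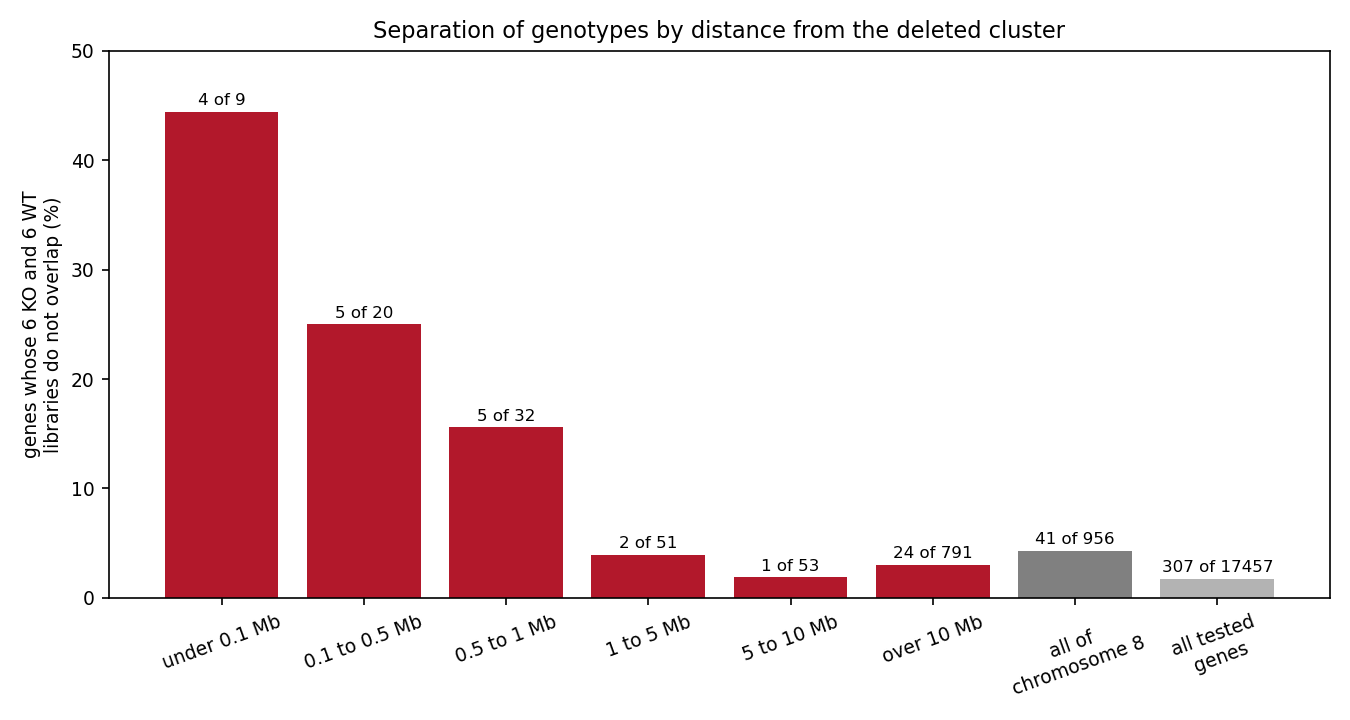
Percentage of tested genes whose 6 Mirc11-/- (KO) and 6 wild-type (WT) libraries do not overlap, by distance from the cluster along chromosome 8, with the whole chromosome and all tested genes in grey. The bars fall from 44.4% (4 of 9 genes) under 0.1 Mb to 15.6% between 0.5 and 1 Mb, and all tested genes stand at 1.76%.

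Among genes whose mean level was 2 log2 CPM or more, leaving out Gm and Rik models, those whose levels over the 12 libraries were most like those of the 3 nearest transcripts came from several chromosomes, with chromosome 8 among them each time. For Gm37352 these were Zfp868 on chromosome 8 (Pearson r = 0.974), Afdn (0.923) and Fam78a (0.91). For Gm26532 they were Usp38 (0.958) and Chd9 (0.949), both on chromosome 8, and Dennd2c (0.937). From the cluster, Zfp868 lies at -14.6 Mb, Usp38 at -3.19 Mb and Chd9 at 6.62 Mb (minus for lower coordinates). Zswim4 was most like Hook2 (0.982), which lies 0.782 Mb from the cluster, and then Vcl (0.979) and Mgat3 (0.975). Of all tested genes 5.48% are on chromosome 8, a share taken without the limits on level and name used for this ranking. The 12 points share the genotype and stimulation groups, so these values are descriptions. Among the described genes themselves, Gm37352 ran opposite to Trmt1 (r = -0.934) and Gm26532 opposite to Dcaf15 (r = -0.925), and Gm37352 ran with Adgre5 (r = 0.848).

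The response to NKG2D was tested in each genotype with edgeR's quasi-likelihood test over all genes. In Mirc11-/- cells 3 of the 9 genes rose (Zswim4, Gm37352 and Il27ra) and 1 fell (Trmt1), and in wild-type cells 4 rose (Zswim4, Il27ra, Adgre5 and Cc2d1a) and 0 fell. Of all tested genes, 45.6% were called in Mirc11-/- cells (23.5% rose, 22.1% fell) and 31.8% in wild-type cells (16.1% rose, 15.7% fell). The signed median response of the 9 genes was 0.243 log2 in Mirc11-/- and 0.163 log2 in wild-type cells. Over all genes, where rises and falls cancel, it was 0.0319 and 0.0208 log2. In absolute size the median response of the 9 genes was smaller than that of all genes. It was 0.296 against 0.426 log2 in Mirc11-/- and 0.163 against 0.329 log2 in wild-type cells.

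Zswim4 rose in both genotypes. It rose 1.53-fold in stimulated Mirc11-/- cells (0.62 log2 ± 0.0894, adjusted p = 0.000109) and by a like amount in wild-type cells (0.59 log2 ± 0.0864, adjusted p = 0.000206), with every stimulated library above every unstimulated one in both. The 2 responses differed by 0.03 log2 ± 0.124 (adjusted p = 0.929), with an approximate 95% interval of -0.21 to 0.27 log2. Il27ra also rose in both, by 0.36 log2 ± 0.0933 in Mirc11-/- (adjusted p = 0.00609) and by 0.58 log2 ± 0.0935 in wild-type cells (adjusted p = 0.000389), again without overlap of libraries. With no filter on low counts the call of Il27ra in Mirc11-/- cells ended (0.27 log2, adjusted p = 0.11), as did that of Gm37352 (0.30 log2, adjusted p = 0.0743).

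Adgre5 rose in wild-type cells by 0.71 log2 ± 0.163 (adjusted p = 0.00456). In Mirc11-/- cells, with an unstimulated level of 15.5 ± 1.82 CPM, it changed by 0.24 log2 ± 0.156 without passing the test (adjusted p = 0.221). The difference between the responses, -0.47 log2 ± 0.225, did not pass either (adjusted p = 0.472). Its overlapping neighbour Ddx39 moved the other way, falling by 0.81 log2 in Mirc11-/- (adjusted p = 1.62e-05) and by 0.50 log2 in wild-type cells (adjusted p = 0.00109).

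Trmt1 fell by 0.32 log2 ± 0.0844 in Mirc11-/- cells (adjusted p = 0.00699), and in wild-type cells its change was -0.11 log2 ± 0.0823 (adjusted p = 0.36). Gm37352 rose by 0.40 log2 ± 0.137 in Mirc11-/- cells (adjusted p = 0.0288) with overlapping libraries, and its change in wild-type cells was 0.14 log2 ± 0.143 (adjusted p = 0.488). The call of Gm37352 ended without unstimulated Mirc11-/- replicate 2 or 3, or without stimulated Mirc11-/- replicate 1 or 2 (adjusted p of 0.124, 0.111, 0.0868 and 0.106). Cc2d1a rose by 0.26 log2 ± 0.0851 in wild-type cells (adjusted p = 0.0338), and its change in Mirc11-/- cells was 0.17 log2 ± 0.0861 (adjusted p = 0.114). That call of Cc2d1a ended in 8 of 12 leave-outs: without unstimulated wild-type replicate 2 or 3, any stimulated wild-type replicate, or any unstimulated Mirc11-/- replicate (adjusted p of 0.0503 to 0.132). It also ended without TMM factors, with no filter and with a background covariate (adjusted p of 0.104, 0.293 and 0.0688). Podnl1, Dcaf15 and Gm26532 passed in neither genotype, with changes of -0.27, -0.15 and 0.30 log2 in Mirc11-/- and 0.03, -0.09 and 0.16 log2 in wild-type cells.

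No difference between the genotypes' responses passed edgeR's test for the 9 genes, with 0 of 9 at an unadjusted p under 0.05 and 0 by DESeq2. Over all tested genes, 0.0115% (2 genes) were called for this difference (68 genes by DESeq2) and 10.6% had an unadjusted p under 0.05. The difference of each gene's responses lay between -0.47 log2 for Adgre5 and 0.26 log2 for Gm37352. The standard errors ran from 0.118 log2 for Trmt1 to 0.378 log2 for Podnl1.

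Background reads moved with stimulation. The summed level of 548 vomeronasal receptor genes, which NK cells are not known to use, was 49.1 to 85.4 CPM in stimulated and 14.6 to 17 CPM in unstimulated Mirc11-/- cells, against 24.8 to 41.5 CPM in stimulated and 13.6 to 17.4 CPM in unstimulated wild-type cells. With the log2 of this level as a covariate, 0 of the 4 calls in Mirc11-/- cells held (Zswim4, Il27ra, Gm37352 and Trmt1 at 0.70, 0.66, 0.90 and 0.14 log2, adjusted p of 0.0758, 0.0855, 0.125 and 0.675), and 3 of the 4 in wild-type cells did (Zswim4, Il27ra and Adgre5). The level does not overlap between stimulated and unstimulated libraries in either genotype. The part of background reads in the responses of both genotypes therefore cannot be told apart from stimulation, also for the wild-type calls that held. Summed B-cell markers were 103 to 115 CPM in stimulated and 64.6 to 73.5 CPM in unstimulated Mirc11-/- cells, against 105 to 129 CPM in stimulated and 57.4 to 72.1 CPM in unstimulated wild-type cells. Dendritic-cell markers summed to 22.3 to 33 CPM in stimulated and 10.5 to 14.1 CPM in unstimulated Mirc11-/- cells, against 24.8 to 28.4 CPM in stimulated and 10.1 to 14.8 CPM in unstimulated wild-type cells. Macrophage and monocyte markers summed to 10.8 to 15.1 CPM in stimulated and 5.23 to 9.38 CPM in unstimulated Mirc11-/- cells, against 16 to 19.2 CPM in stimulated and 8.9 to 11.3 CPM in unstimulated wild-type cells. These 3 lists were higher in every stimulated library of each genotype, and their part in the responses was not tested. T-cell markers overlapped between treatments in both genotypes. They were 318 to 364 CPM in stimulated and 360 to 452 CPM in unstimulated Mirc11-/- cells. In stimulated and unstimulated wild-type cells they were 347 to 387 and 312 to 416 CPM. Neutrophil and mast cell markers also overlapped between treatments in both genotypes. Erythroid and platelet markers were at most 0.29 CPM. Between the genotypes the vomeronasal level did not overlap in stimulated cells and overlapped in unstimulated cells. With the covariate, the genotype differences in stimulated cells were 2.04 log2 for Gm37352, 0.40 for Il27ra, -0.49 for Trmt1 and 0.06 for Cc2d1a. Without it they were 1.74, 0.23, -0.75 and -0.02 log2. The cause of these shifts was not tested.

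**Figure D4:**
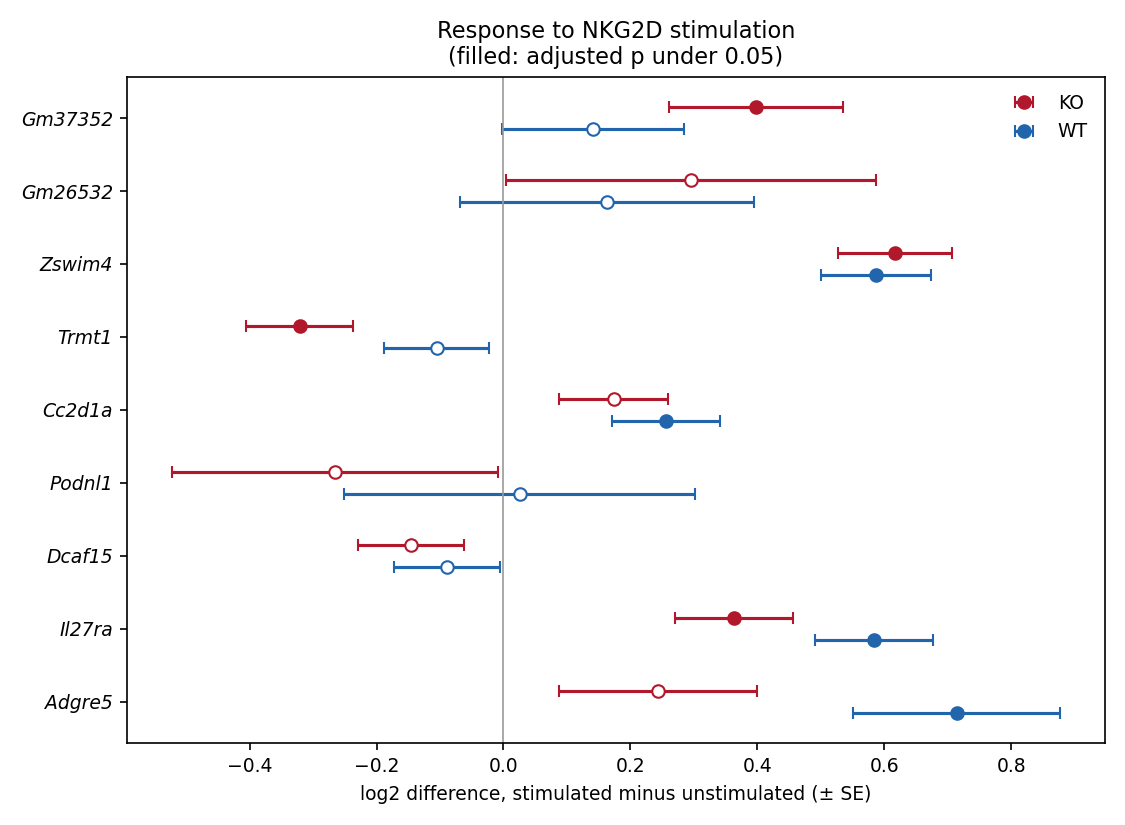
Log2 difference in level, stimulated minus unstimulated, of the 9 tested genes in Mirc11-/- (KO, red, upper) and wild-type (WT, blue, lower) cells, with the SE of the fit; filled points passed an adjusted p of 0.05. Zswim4 lies at 0.62 and 0.59 in the 2 genotypes, and Adgre5 at 0.24 and 0.71.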

How the data were processed

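Per the submitters' processing notes, bcl2fastq, Trim Galore 0.4.1, Bowtie2 2.2.8, RSEM 1.3.0 and GRCm38 were used. The deposited table held RSEM expected counts per gene, not scaled between libraries and all whole numbers, so no rounding was needed; the annotation release and strand setting are not given in the sources used here. Totals ranged from 15139281 to 25342991 counts per library.

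After filterByExpr and TMM scaling, edgeR 4.0.16 (R 4.3.3) was run with its robust quasi-likelihood test and 1 mean per group over all 12 libraries, with Benjamini-Hochberg adjustment over the 17457 genes tested, a threshold of 0.05 and two-sided tests. CPM are relative to the TMM-adjusted library size. On simulated data the fit recovered 189 of 200 genes changed by 2-fold for stimulation in Mirc11-/- cells and 140 of 200 for the difference of responses (16878 genes tested). The 200 genes were drawn from those of mean level above 2 log2 CPM. Smaller changes, such as the responses of the described genes, were not simulated. GENCODE vM21 (GRCm38) gave positions and exon lengths and matched 50367 of the table's 50674 genes by identifier. The members, lists and alternatives were chosen with earlier results of these data known. Named were all members, the cluster and its paralogue, the 5 nearest tested protein-coding genes on each side, and the 3 genes of highest correlation at mean levels of 2 log2 CPM or more (no Gm or Rik models); Ddx39 and Nacc1, which overlap a member, and genes said to be so were added after values were seen. Alternatives were DESeq2 1.42.0, other scalings and filters, a background covariate, a replicate block and leaving out each library.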

Additional observations from a re-analysis of the deposited data

How the results depend on the processing

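Across 7 alternative settings and 12 leave-outs, the number of the 9 genes called for stimulation was 4 in Mirc11-/- cells under most settings, 5 with the stricter filter (Cc2d1a added), 2 with no filter (Trmt1 and Zswim4), where the median response of all genes was 0.767 log2, and 0 with the background covariate. It was 3 to 4 in wild-type cells, with Cc2d1a the call lost. Leave-outs gave 3 to 4 calls in both. Correlations of deviations between same-numbered stimulated and unstimulated libraries were 0.0723, -0.0651 and 0.141 in Mirc11-/- and 0.0935, 0.226 and 0.135 in wild-type cells for replicates 1 to 3. Each wild-type library correlated best with its own number and not every Mirc11-/- library did, so the libraries were taken to share only a number. The replicate block kept 4 calls in each genotype for the same genes. For the difference of responses 0 of the 9 genes were called under every setting and leave-out. Over all genes that test called 2 genes as reported, 13 with the replicate block, 47 with no filter, 68 by DESeq2, 3 with the stricter filter, 0 with the covariate and 0 to 19 in leave-outs. Over all genes, the covariate gave 1244 calls for stimulation in Mirc11-/- cells, against 7958 as reported. Genotype differences kept their sign in every setting for the 8 tested genes other than Cc2d1a; Trmt1 in stimulated cells differed by -0.49 log2 with the covariate. Signs turned for stimulation in Mirc11-/- cells for Trmt1 with the covariate (0.1358 log2); in wild-type cells for Trmt1 with the covariate (0.1108), for Podnl1 with no composition factor (-0.03322), no filter (-0.01005), the covariate (-0.1451) and in leave-outs (-0.159 to 0.379), and for Gm37352 in leave-outs (-0.02343 to 0.269). For the interaction they turned for Zswim4 with no filter (-0.03276) and in leave-outs (-0.0412 to 0.0812), Gm26532 in leave-outs (-0.00899 to 0.333), Dcaf15 with no composition factor (0.008518) and Trmt1 with the covariate (0.02495). Only the turn of Trmt1 in Mirc11-/- cells concerned a value past the threshold; the cause was not tested. Depth limits Mir27a (13 counts) and Gm26532.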
